A study of Homo sapiens with 6 samples.

Results

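Growth factors, Wnt proteins, ephrins, semaphorins and their receptors were examined by their place on the 2 gene lists deposited with RNA measurements of SiHa cells, which name genes of high and of low expression. Members were chosen by gene symbol alone, as every listed symbol of the EGFR and ERBB, FGF, Wnt and Frizzled, BMP, TGF-beta, SMAD, Notch, Jagged and Delta, ephrin and Eph, IGF, PDGF, VEGF, semaphorin and plexin families. This gave 79 genes of the 8942 symbols that stood on 1 list only. SiHa is an established, HPV-carrying line from a squamous cell carcinoma of the cervix, and the labels give no genetic change or drug for any group. The protocols in the labels describe transwell plates with 6 wells, in which cells can crawl through a porous membrane. Cells were collected 10 hours after seeding and pooled. The migrated fraction, taken as the cells that had crossed, and the non-migrated fraction gave 3 libraries each. The labels do not say whether replicate sets were separate cultures.

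The migrated libraries held 23166447 to 25662866 assigned fragments and the non-migrated libraries 18226280 to 33466924. The table with these libraries gives its 26006 loci assembly IDs only, with no gene names beside them, and it numbers replicates within each fraction without the sample titles. No value per library and no difference between the fractions can therefore be given for any gene below. The lists hold symbols and hg19 positions and no expression values. No source used here states their cut-offs or which libraries they rest on, and they were read as statements of level, not of change. Of 11 markers of cervical and squamous epithelium, KRT7, KRT8, KRT17, KRT18 and CDKN2A were high and KRT5 was low. Neither list held EPCAM, CDH1, KRT14, KRT19 or TP63. Of 14 markers of leukocytes, endothelium and fibroblasts, 0 were high and 5 low.

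These families let cells signal to each other. Secreted or membrane-bound ligands bind receptors on the same or a neighbouring cell, and the receptors pass the signal on through kinases, SMAD proteins, beta-catenin or a cleaved receptor fragment. In squamous epithelia they are known for the control of growth, differentiation, adhesion and movement, with many ligands made by the underlying stroma and received by the epithelium.

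Among the listed members, most receptors were high and most ligands low. Of the 79 members, 35 (44.3%) were high and 44 low. Of all 8942 listed symbols 50.6% were high and 49.4% low, and of those that code for a protein 54.1% were high, so the members as a whole lay near that background. Ligands gave 8 high and 29 low, or 21.6% high. Ligands other than FGF gave 7 high and 15 low, or 31.8% high. Receptors gave 16 high and 5 low, or 76.2% high. The 5 low receptors among the members were all EphA receptors, and the 15 member receptors of other kinds, EPHB4 among them, were all high. Receptors that the symbol rule does not match are outside these counts and stood on both lists. For example, MET, AXL and ENG were high, and FLT1, KDR, KIT, CSF1R, ACVRL1 and AMHR2 were low. Members that act inside the cell gave 4 high, namely ERBB2IP, SMAD2, SMAD3 and SMAD4, and 2 low, FGF13 and FGF14. Extracellular binding proteins, proteases and matrix proteins also gave 4 high and 2 low. The remaining members were 5 antisense RNA genes, all low, and 4 genes that only share the name, of which 3 were high and 1 low. Symbols matched to a protein-coding gene made up 4475 of the 4527 high and 3793 of the 4415 low symbols. Listed symbols of other kinds were thus mostly low, as these antisense genes were. Genes of 1 family share descent and often sequence, and were not treated as replicates, so these shares are counts and carry no test.

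**Figure D1:**
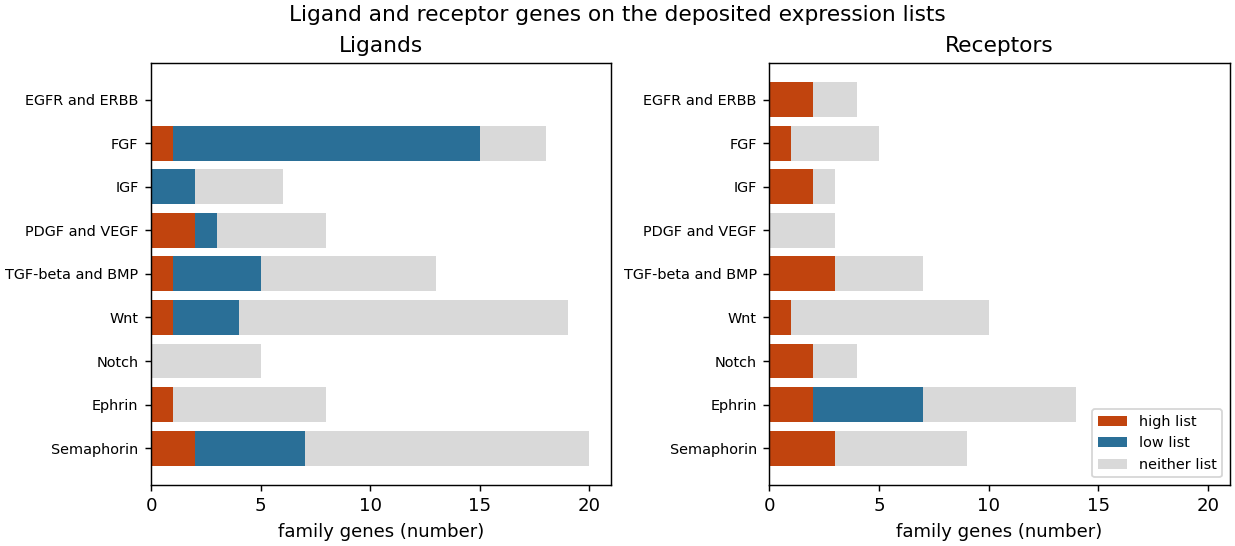
Number of family genes (x axis) by pathway for ligands (left) and receptors (right), coloured by the list that holds them, with genes on neither list in grey. FGF ligands make up 14 of the 29 low ligands, and among receptors chosen by symbol low ones occur only in the ephrin pathway, with 5. Receptors outside the symbol rule, such as the low FLT1 and KDR, are not drawn.

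Most genes of these families were on neither list. Of 187 family genes written down by name, 117 (62.6%) were on neither, against 58.9% of 20056 protein-coding symbols in RefSeq. Of those symbols 22.3% were high and 18.8% low. These shares are the background for counts over whole families and for the other pathway genes given further on. Of 97 family ligands 8 were high, 29 low and 60 on neither list. Of 59 family receptors 16 were high, 5 low and 38 on neither list. The 76.2% high among listed receptors is thus not a share of all family receptors. Absence from both lists says nothing of a gene's level here.

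The sequence just before the transcription start differs in its content of CpG dinucleotides between genes, and CpG-rich promoters are typical of widely expressed and developmental genes. Promoter windows from RefSeq (build GRCh38.p14), spanning 250 bases before to 50 bases after an annotated start, were matched for 62 of the 79 members. Where a gene had several windows, as 19 members had, the first in the table was used. The 250 bases before the start are printed here for the members with the highest, a near-median and the lowest CpG ratio on each list, and for EPHA2 and FGF2, which were added after the lists were seen as the high relatives of EPHA8 and FGF10. Capitals mark each CpG, and all sequences run 5′ to 3′ on the gene's strand. From the high list come IGF1R (chr15:98648289-98648538, plus strand), BMPR2 (chr2:202376077-202376326, plus), SEMA3C (chr7:80922390-80922639, minus), EPHA2 (chr1:16156070-16156319, minus) and FGF2 (chr4:122826581-122826830, plus). From the low list come EPHA8 (chr1:22563239-22563488, plus), FGF10 (chr5:44389421-44389670, minus) and FGF21 (chr19:48755274-48755523, plus).
IGF1R: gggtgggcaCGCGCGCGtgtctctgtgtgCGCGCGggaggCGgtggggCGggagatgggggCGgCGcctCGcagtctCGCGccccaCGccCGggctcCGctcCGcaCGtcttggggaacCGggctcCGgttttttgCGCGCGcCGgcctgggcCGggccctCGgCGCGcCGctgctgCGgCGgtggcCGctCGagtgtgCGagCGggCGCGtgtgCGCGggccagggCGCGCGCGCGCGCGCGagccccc
BMPR2: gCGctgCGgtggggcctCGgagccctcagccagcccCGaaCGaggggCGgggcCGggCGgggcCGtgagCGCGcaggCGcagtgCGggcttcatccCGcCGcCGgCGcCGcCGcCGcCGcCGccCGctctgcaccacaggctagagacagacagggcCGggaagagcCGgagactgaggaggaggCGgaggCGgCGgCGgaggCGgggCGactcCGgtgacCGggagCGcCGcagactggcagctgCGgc
SEMA3C: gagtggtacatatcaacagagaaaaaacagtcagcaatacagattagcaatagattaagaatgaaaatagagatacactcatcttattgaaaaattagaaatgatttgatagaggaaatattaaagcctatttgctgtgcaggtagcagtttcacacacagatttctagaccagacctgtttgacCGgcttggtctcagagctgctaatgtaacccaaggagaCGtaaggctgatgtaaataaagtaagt
EPHA2: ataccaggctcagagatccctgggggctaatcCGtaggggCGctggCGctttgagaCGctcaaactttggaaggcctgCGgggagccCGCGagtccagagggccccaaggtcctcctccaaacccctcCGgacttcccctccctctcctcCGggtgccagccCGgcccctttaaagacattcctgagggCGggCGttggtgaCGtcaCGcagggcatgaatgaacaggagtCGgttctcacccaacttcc
FGF2: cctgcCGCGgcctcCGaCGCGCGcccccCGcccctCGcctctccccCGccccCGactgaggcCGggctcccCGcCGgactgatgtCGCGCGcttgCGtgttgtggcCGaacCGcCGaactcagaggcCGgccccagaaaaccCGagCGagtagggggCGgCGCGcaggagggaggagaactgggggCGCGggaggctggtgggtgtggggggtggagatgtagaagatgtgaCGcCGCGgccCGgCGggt
EPHA8: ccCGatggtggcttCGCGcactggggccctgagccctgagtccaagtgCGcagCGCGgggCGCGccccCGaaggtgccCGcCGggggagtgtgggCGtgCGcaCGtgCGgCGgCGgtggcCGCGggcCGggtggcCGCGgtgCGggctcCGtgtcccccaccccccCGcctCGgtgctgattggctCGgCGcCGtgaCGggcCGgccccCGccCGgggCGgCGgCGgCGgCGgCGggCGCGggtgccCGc
FGF10: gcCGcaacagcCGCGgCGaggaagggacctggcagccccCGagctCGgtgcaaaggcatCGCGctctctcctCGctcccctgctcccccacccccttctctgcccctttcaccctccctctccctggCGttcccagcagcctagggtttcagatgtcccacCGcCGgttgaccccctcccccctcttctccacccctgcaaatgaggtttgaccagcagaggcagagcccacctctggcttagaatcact
FGF21: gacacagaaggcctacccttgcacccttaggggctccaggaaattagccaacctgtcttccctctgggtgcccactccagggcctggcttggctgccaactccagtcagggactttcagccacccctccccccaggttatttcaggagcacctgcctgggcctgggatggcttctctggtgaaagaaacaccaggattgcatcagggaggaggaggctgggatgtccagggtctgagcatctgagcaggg

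The high members had CpG-rich windows nearly throughout, and the low members were mixed. The CpG ratio, observed over expected CpG in the 300 bases, had a median of 0.869 over 29 high members and 0.492 over 33 low members. It was at least 0.6 in 26 of the 29 high members (89.7%) and in 14 of the 33 low members (42.4%). Over all listed symbols with a window these shares were 90.5% among high and 25.9% among low symbols. The high members thus lay at the background of their list, while the share among low members was above that of the low list as a whole. No test was made of that gap.

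Among low members, CpG-rich windows were unevenly spread over the roles. All 5 low EphA receptors had a ratio of at least 0.6, with EPHA3 lowest at 0.654 and EPHA8 highest at 1.01. EPHA2, the high EphA receptor, had 0.644, below each of them. In the sequences above, EPHA8, the low EphA receptor with the highest ratio, has 42 CpG in 250 bases and EPHA2 has 15. By count over the whole window, EPHA2 had 20 CpG, more than EPHA3 with 17 and EPHA5 with 19. EPHA7 with 24, EPHA6 with 30 and EPHA8 with 51 had more than EPHA2. A window was matched for 21 of the 29 low ligands, and for only 7 of the 14 low FGF ligands. Of those 21 low ligands, 7 (33.3%) reached 0.6, beside 25.9% of all low symbols with a window. These 7 were BMP4, FGF5, FGF3, WNT9B, WNT1, PDGFD and SEMA6D. BMP4, an inducer of mesoderm and epidermis in the embryo, had a ratio of 0.997, within the range of the high receptors. At the other end FGF21, a liver hormone, had 0.0371 over the window and 0 CpG in the 250 bases shown. The high members under 0.6 were SEMA3C at 0.210, IGFBP6 at 0.422 and PLXNB2 at 0.436. SEMA3C has another annotated start, whose window had a ratio of 1.07, so its low value holds for the first start only. Among low members, SEMA5B had 0.588 at the first start and 0.793 at another, and FGF14 had 0.411 and 1.02. With the window of highest ratio for each gene, 8 of the 21 low ligands reached 0.6, and the shares were 93.1% of high and 48.5% of low members.

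**Figure D2:**
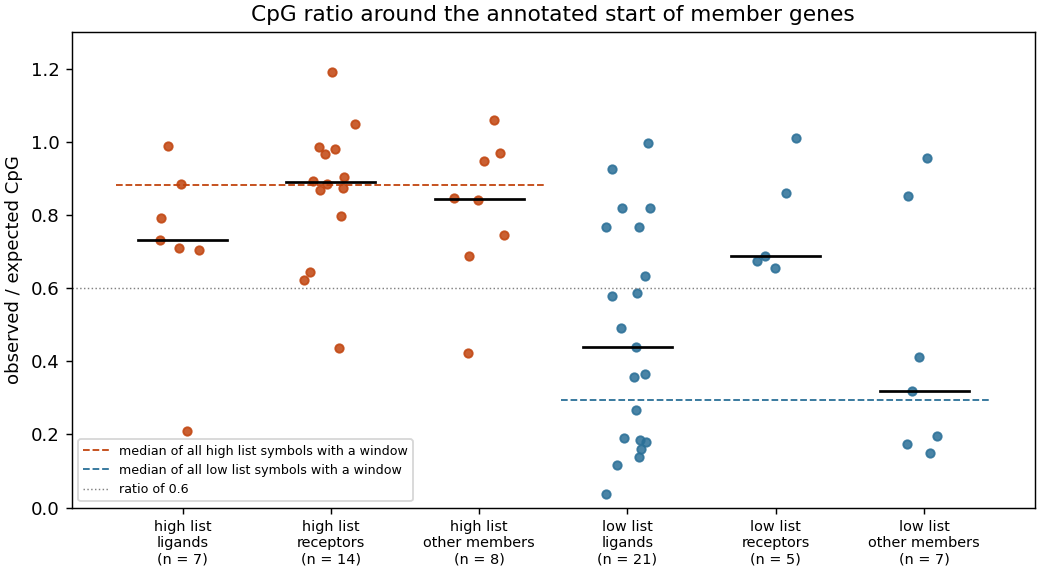
Observed over expected CpG in the 300-base window (y axis) for each member with a window, by list and role, with black bars at the group medians, dashed lines at the median of all listed symbols on that list and a dotted line at 0.6. All 5 low receptors lie above 0.6, while low ligands run between 0.0371 and 0.997.

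The EGFR family was high where listed. EGFR (hg19 chromosome 7, 55086714 to 55324313), the receptor for EGF and its relatives, and ERBB2, the partner receptor with no known soluble ligand, were on the high list, as was ERBB2IP, a scaffold protein that binds ERBB2. ERBB3 and ERBB4 were on neither list. Among 11 ligands of these receptors, named in a separate list, EREG (epiregulin) was high, NRG3 (neuregulin 3) was low and 9 were on neither. Downstream, 10 of 25 genes of the route from receptor kinases to ERK were high, 0 low and 15 on neither list, against 22.3% high and 18.8% low for all protein-coding symbols. The high ones included the adaptors GRB2 and SHC1. How far such counts depart from those of intracellular genes in general was not tested.

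The FGF family had the strongest tilt to the low list, with 2 of its 23 listed symbols (8.70%) high. These 23 include 4 antisense genes. Of 18 secreted FGF genes, FGF2 (hg19 chromosome 4, 123747863 to 123819391) was high, 14 were low and FGF7, FGF18 and FGF22 were on neither list. FGF2 leaves cells without a classical signal peptide and promotes growth of many cell types. FGFR1, a kinase receptor that binds FGF2, was also high, and FGFR2, FGFR3, FGFR4 and FGFRL1 were on neither list. The low ligands included FGF10 (chromosome 5, 44303646 to 44389808), which stroma sends to epithelium, FGF1 (chromosome 5, 141971743 to 142077611), which binds all FGF receptors, and FGF8 (chromosome 10, 103530081 to 103535827) and FGF9 (chromosome 13, 22245522 to 22278637) of embryonic patterning. They also included all 3 endocrine FGF genes, FGF19 (chromosome 11, 69513000 to 69519410), FGF21 (chromosome 19, 49259344 to 49261580) and FGF23 (chromosome 12, 4477393 to 4488894).

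The other low FGF ligands were FGF3 (chromosome 11, 69624992 to 69633792), FGF4 (chromosome 11, 69587797 to 69590171), FGF5 (chromosome 4, 81187753 to 81212171), FGF6 (chromosome 12, 4537322 to 4554780), FGF16 (chromosome X, 76709648 to 76712769), FGF17 (chromosome 8, 21899909 to 21906320) and FGF20 (chromosome 8, 16849678 to 16859690). FGF13 and FGF14, which stay inside the cell and bind sodium channels, were low too. So was FGFBP2, a secreted protein of cytotoxic lymphocytes. The antisense genes FGF12-AS1, FGF12-AS2, FGF12-AS3 and FGF14-AS1 were low, and FGF12 itself was on neither list. FGF14-AS1 lies within FGF14 on the other strand, and no source used here states whether counting used strand, so the fragments of both genes cannot be told apart.

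In the IGF family both receptors of the IGF ligands were high and no IGF ligand was. IGF1R, the kinase receptor for IGF1 and IGF2, and IGF2R, which takes up IGF2 and lysosomal enzymes, were on the high list, while IGF1 and IGF2 were on neither. Binding proteins, which hold IGF in the extracellular fluid, were split. IGFBP4 (chromosome 17, 38599702 to 38613983) and IGFBP6 (chromosome 12, 53491220 to 53496129) were high, and IGFBP1 (chromosome 7, 45927956 to 45933267), mainly a liver product, was low. The IGF-like genes IGFL2 and IGFL3 were low, as was the antisense gene IGF2-AS, which overlaps the listed read-through gene INS-IGF2 on the other strand. Of 15 genes of the route from insulin and IGF receptors to AKT and mTOR, 9 were high, among them AKT1, AKT2 and MTOR, 0 were low and 6 were on neither list, against the same 22.3% high and 18.8% low.

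PDGF and VEGF ligands stood on both lists. VEGFA, the main driver of vessel growth, and PDGFA (chromosome 7, 536895 to 559933), a mitogen for stromal cells, were high. PDGFD (chromosome 11, 103777914 to 104035107) was low, and it overlaps DDI1, which was low as well. The PDGF receptors PDGFRA and PDGFRB were on neither list. The VEGF receptors FLT1 and KDR were low, while NRP1, a co-receptor for VEGFA and class 3 semaphorins, was high. Of other kinase receptors and ligands in the same list of 16 genes, MET, AXL and KITLG were high and KIT and CSF1R were low. That list had 3 high and 4 low genes, against 22.3% high and 18.8% low for all protein-coding symbols.

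In the TGF-beta and BMP pathway 9 of 13 listed members (69.2%) were high, beside 54.1% of all listed protein-coding symbols. TGFB2, a secreted ligand, and TGFBR2, the type II receptor of TGF-beta, were both high. BMPR1A and BMPR2, a type I and a type II receptor for BMP ligands, were high as well, while the listed BMP ligands BMP3, BMP4, BMP10 and BMP15 were all low. BMP10 is known from the heart and BMP15 from the oocyte. SMAD2 and SMAD3, which carry the TGF-beta signal, and their common partner SMAD4 were high, and the other SMAD genes, which include the BMP-activated SMAD1, SMAD5 and SMAD9 and the inhibitory SMAD6 and SMAD7, were on neither list. BMP1, a protease of procollagen rather than a ligand, and TGFBI, a matrix protein, were high. Outside these families, 8 of 20 activin, inhibin and GDF ligands were low and 0 high, and 4 of 7 SMAD regulators, SMURF1, SKI, SKIL and STRAP, were high with 0 low. Of 8 further receptor and co-receptor genes related to this pathway, ENG was high and ACVRL1 and AMHR2 were low. Of 14 antagonists and latency proteins, 2 were high and 3 low, with FSTL3 and LTBP4 high and CHRDL1 among the low ones. The background for these lists was again 22.3% high and 18.8% low.

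The Wnt family had few listed members, with 24 of 29 Wnt and Frizzled genes on neither list. WNT5A (hg19 chromosome 3, 55499743 to 55523973), a ligand known for signalling apart from beta-catenin, was high. WNT1 (chromosome 12, 49372398 to 49375459), WNT8A (chromosome 5, 137419581 to 137427199) and WNT9B (chromosome 17, 44910621 to 44964096), ligands of development, were low. FZD6 was high and the other 9 Frizzled receptors were unlisted. Of 15 genes for Wnt secretion and co-receptors 4 were high and 3 low, against 22.3% and 18.8% of all protein-coding symbols. Co-receptors LRP5, LRP6 and RYK and the Wnt carrier WLS were high, and the R-spondin ligands RSPO1, RSPO2 and RSPO4 were low. Of 17 intracellular Wnt genes, 9 were high, among them CTNNB1 (beta-catenin), APC and GSK3B, 0 were low and 8 were on neither list, beside a background of 22.3% high and 18.8% low. Of 15 inhibitors, DKK1 was high and DKK2, DKK4, SFRP2, SFRP4 and WIF1 were low.

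Notch receptors were listed and Notch ligands were not. NOTCH1 and NOTCH2 were high, NOTCH3 and NOTCH4 were on neither list, and so were all 5 ligands of the Jagged and Delta type. Of 27 genes for the processing, the nuclear partners and the targets of Notch, 9 were high, 2 low and 16 on neither list. The background was 22.3% high and 18.8% low. Among the high ones were the protease ADAM10 and the DNA-binding partner RBPJ. The targets HES5 and HEYL were low.

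Among the receptor families chosen by symbol, the Eph receptors alone were split between the lists. EPHA2 (hg19 chromosome 1, 16450832 to 16482582), a receptor abundant in epithelia, was high together with its ligand EFNA1, a membrane-anchored ephrin, and with EPHB4. EPHA3 (chromosome 3, 89156674 to 89531284), EPHA5 (chromosome 4, 66185281 to 66536213), EPHA6 (chromosome 3, 96533425 to 97468085), EPHA7 (chromosome 6, 93949738 to 94129265) and EPHA8 (chromosome 1, 22890057 to 22930087), known mostly from the guidance of neurons, were low. EPHA1, EPHA4 and EPHA10 and the other 4 EPHB receptors were unlisted, as were the 7 further ephrins. The low EphA genes spanned 40.0 to 935 kb (median 351 kb), against 31.8 kb for EPHA2. The next listed gene lay 2335 kb from EPHA7, 958 kb from EPHA3 and 910 kb from EPHA5, while EPHA6 and EPHA8 had a listed gene at 128 and 32.4 kb and EPHA2 at 59.8 kb. EPHA8, low, thus had a nearer listed neighbour than EPHA2, high.

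**Figure D3:**
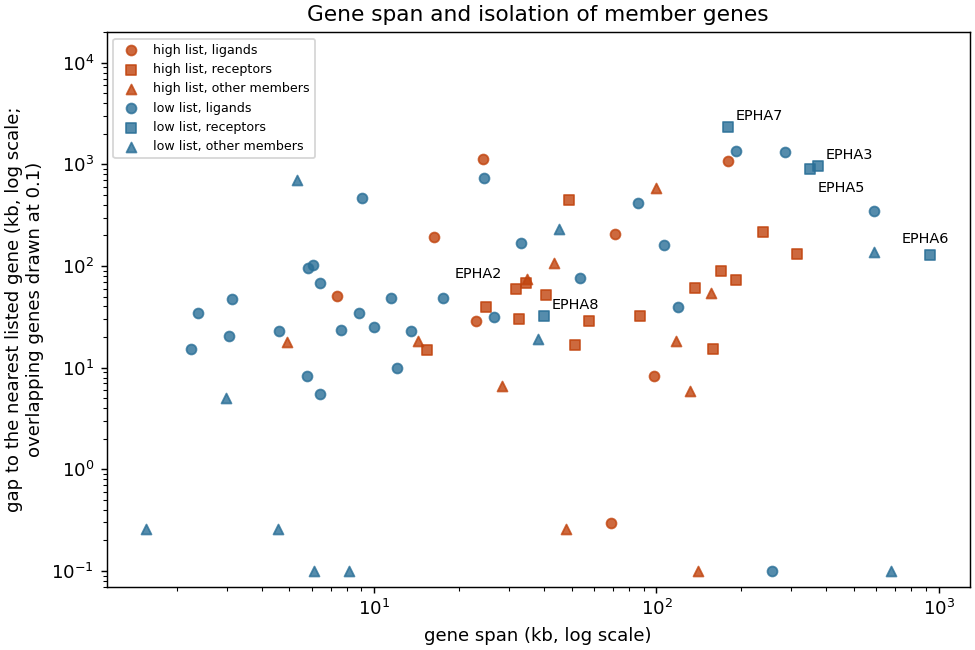
Gap to the nearest listed gene (y axis, kb, log scale) against gene span (x axis, kb, log scale) for all 79 members, by list and role, with EphA genes named. EPHA3, EPHA5 and EPHA7 sit at the top right with gaps of 910 to 2335 kb, while EPHA8 lies beside EPHA2.

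Of 20 semaphorins 2 were high and 5 low, and of 9 plexins 3 were high and 0 low, with the rest of both families on neither list. SEMA3C (chromosome 7, 80371854 to 80551675), a secreted class 3 semaphorin, and SEMA4B, a membrane-bound one, were high. SEMA3D (chromosome 7, 84624869 to 84816171), SEMA3E (chromosome 7, 82993222 to 83278479), SEMA3G (chromosome 3, 52467069 to 52479101), SEMA5B and SEMA6D were low. PLXNA1 and PLXNA3, which act with neuropilins as receptors of class 3 semaphorins, and PLXNB2, a class B plexin, were high. PLXND1, known as the receptor of SEMA3E, was on neither list. Among 21 neuropilins and other guidance genes, NRP1, L1CAM, ROBO1, NTN4 and NEO1 were high and ROBO2, SLIT3, DCC and UNC5D low. These 5 high and 4 low genes stand beside a background of 22.3% high and 18.8% low.

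Known ligand and receptor partners that were both on the high list were FGF2 with FGFR1, TGFB2 with TGFBR2, EFNA1 with EPHA2, EREG with EGFR, VEGFA with NRP1, WNT5A with RYK and SEMA3C with NRP1. These partners were picked after the lists were seen and illustrate the members without testing them. For some other high receptors no ligand among the members was high. BMP4 was low beside BMPR1A and BMPR2, IGF1 was unlisted beside IGF1R, and the Jagged and Delta ligands were unlisted beside NOTCH1 and NOTCH2. Conversely, the VEGF receptors FLT1 and KDR were low beside VEGFA, and PDGFRA and PDGFRB were unlisted beside PDGFA.

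**Figure D4:**
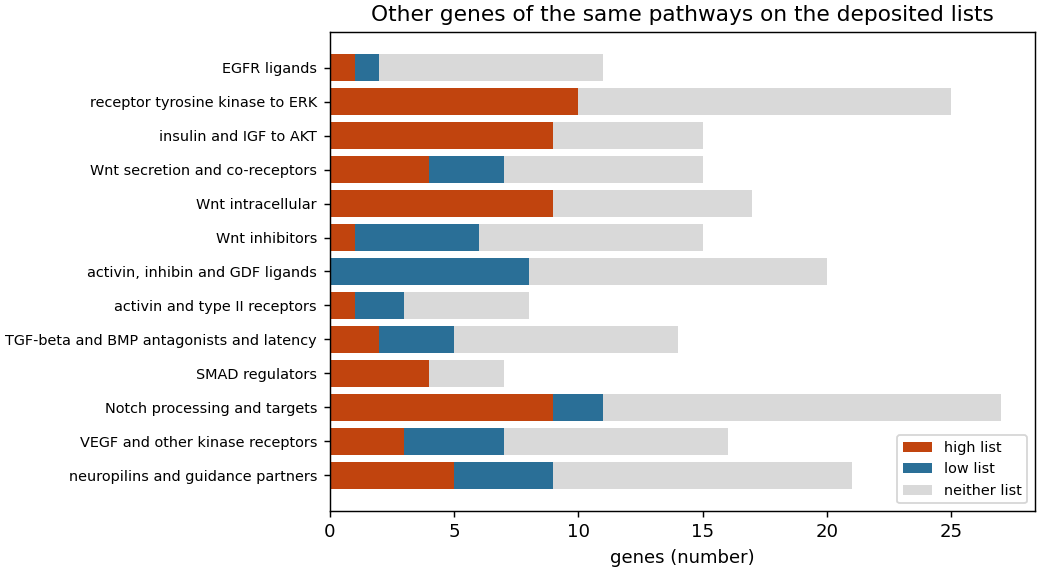
Number of genes (x axis) on the high list, the low list or neither, for 13 lists of other genes of the same pathways (y axis). The ERK, AKT, Wnt intracellular and SMAD regulator lists hold high genes and 0 low genes. The list of Notch processing and targets holds 9 high and 2 low genes, and the activin, inhibin and GDF ligands 8 low and 0 high.

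Gene size differed between lists and roles. High members spanned a median of 51.4 kb and low members 12.8 kb, against 33.2 kb and 10.9 kb for all high and all low symbols. Protein-coding low members had a median span of 17.5 kb. The median span was 46.7 kb for high and 11.5 kb for low ligands. Receptors went the other way, with 54.6 kb for high receptors and 351 kb for the 5 low ones. The longest annotated coding transcript had a median of 4430 bases for high ligands and 2193 for low ligands, and of 9186 for high receptors and 5809 for low receptors. Over all listed symbols it was 3725 bases for high and 2148 for low symbols. Whether the lists go by fragments or by fragments per length is stated in no source used here, and the part of transcript length in the split of ligands and receptors was not tested. Among EphA genes the high EPHA2 had a longest transcript of 3964 bases, shorter than the 3971 to 8421 bases of the low ones. With each gene's median transcript in its place, the medians were 2678 bases for high ligands, 1650 for low ligands, 4830 for high receptors and 3372 for low receptors, the last below the 3964 bases of EPHA2.

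Several groups of relatives that lie close together on a chromosome were on the low list together. FGF19, FGF4 and FGF3 lie within 121 kb of chromosome 11 with 0 other listed genes between them, and all were low. FGF23 and FGF6, 48.4 kb apart on chromosome 12, and IGFL3 and IGFL2, 23.1 kb apart on chromosome 19, were low too. Class 3 semaphorins on chromosome 7 were split, with SEMA3C high and SEMA3E low at 2442 kb from it, followed by SEMA3D, low, after another 1346 kb. FGF17 and BMP1 on chromosome 8 are 116 kb apart and stood on opposite lists, the protease BMP1 on the high and FGF17 on the low one. The nearest listed gene was on the same list for 21 of 35 high members (60.0%) and 31 of 44 low members (70.5%). With members left out as neighbours these shares were 60.0% and 63.6%. For all listed symbols the share was 76.3% for high and 72.7% for low symbols, so members did not stand on the list of their neighbours more often than other genes.

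**Figure D5:**
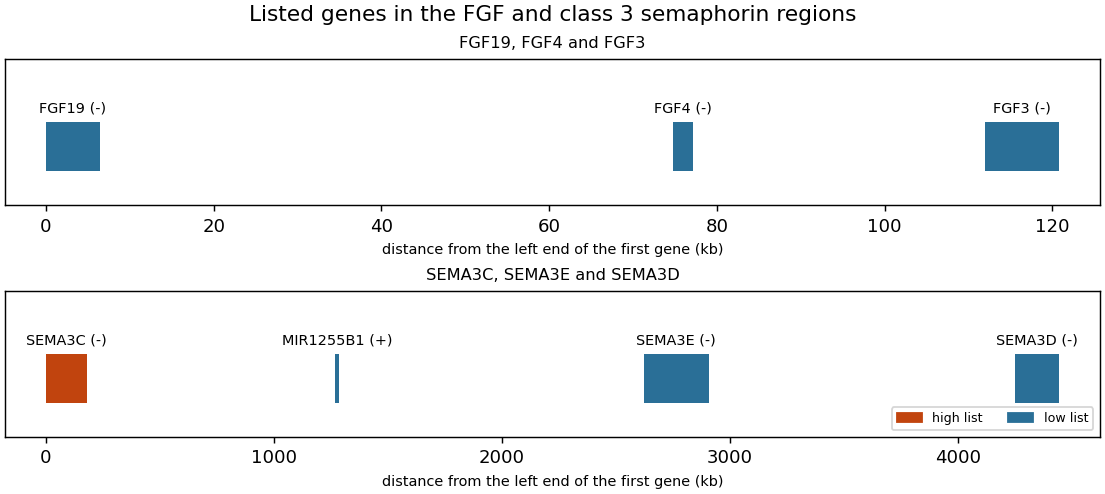
Listed genes of the FGF group (top) and of the class 3 semaphorin group (bottom) by distance from the left end of the first gene (x axis, kb), coloured by list, with strand in brackets. The FGF genes are all low, while SEMA3C is high and SEMA3E, after a gap of 2442 kb, and SEMA3D are low.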

How the data were processed

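Build hg19 and the tools Cuffdiff, Cufflinks 2.2.1, TopHat2 and CASAVA 1.8.2 appear in the submitters' processing notes, without settings. Per the file headers, the deposited Cuffdiff table holds estimated counts of fragments per locus and library, used here for depth alone, and 3 further columns of scaled values per library were not used. The 2 deposited lists hold 4531 and 4436 rows with hg19 positions, and their value column is empty. Repeated symbols were counted once, and 4 symbols on both lists were left out.

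Members were found by symbol, and pathways and roles were assigned by hand. Members and lists were chosen with earlier results of these data known. Current symbols came from RefSeq (GRCh38.p14), transcript lengths from GENCODE 29 (74 members matched), and the nearest listed gene from gaps between hg19 spans. The script's functions were tested on simulated data. Python 3.11.15, pandas 2.3.3 and scipy 1.17.1 were used. No test was made, and every listed member is named. Planned binomial intervals served only to judge the alternatives. Proteins of relatives on opposite lists, also planned, were not analysed here. Some genes of the pathway lists are counted but not reported here by name.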

Additional observations from a re-analysis of the deposited data

How the results depend on the processing

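No paired analysis was possible because the results come from lists without values per library and from no test, and leaving out libraries could not be done for the same reason. An alternative was judged by whether its value stayed within the 95% binomial interval of the value reported (for medians, an interval of order statistics). Of 55 alternatives over 15 results, 49 stayed within it. Some of those 49 could not move, because the alternative left out no gene of the count. Examples are ligands without the Notch pathway, still 8 of 37, and receptors without the PDGF and VEGF pathway, still 16 of 21. Such cases say nothing on how firm a value is. Without the FGF pathway 58.9% of members were high, against 44.3% with it. Without the ephrin pathway 100% of the receptors among the members were high, against 76.2%, which leaves out receptors that the symbol rule does not match. The high share of all listed symbols was 54.4% without LINC, defensin, olfactory receptor and keratin-associated genes and 54.1% for protein-coding genes. A CpG ratio of at least 0.75 was met by 65.5% of high members, outside the interval, and by 30.3% of low members, within it. With each gene's transcripts summarised by their median, the median length was 3372 bases for low receptors, against 5809 with the longest, again outside the interval. The values for high receptors, 4830 against 9186, and for high ligands, 2678 against 4430, stayed within theirs. The cause of the values outside the interval was not tested beyond the genes left out or the stricter limit itself. Alternatives added after the data were seen were the choice of window, the protein-coding members for the CpG share of each list, the omission of members as neighbours and the median transcript.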

Other observations

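Short sequence motifs near the start were sought on both strands of the 300-base windows. TATAAA, the core of the TATA box, was found in 3 of 29 high members (TGFB2, BMPR1A and IGFBP4) and in 4 of 33 low members (FGF6, FGF13, IGFL2 and FGF12-AS1), or 10.3% and 12.1%. It was found in 5.18% of all high and 19.8% of all low symbols with a window, and in 11.5% of all 35116 windows. TGANTCA, the core bound by AP-1, was found in ERBB2 on the high list and IGFL3 on the low list, or 3.45% of high and 3.03% of low members. It was found in 3.74% of all high and 8.99% of all low symbols with a window, and in 7.71% of all windows. CTTTGNT, a core bound by TCF and LEF factors, was found in 2 of 29 high members, TGFB2 and IGFBP6, and in 7 of 33 low members, BMP4, BMP15, SEMA3G, SEMA5B, SEMA6D, FGFBP2 and IGFL3. It was found in 9.08% of all high and 20.4% of all low symbols with a window, and in 15.4% of all windows. Overlap between motifs was not counted, and a match describes the letters only.

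The 4 genes that match the naming rule without belonging to the pathways were BMP2K, a kinase, FGFR1OP, a centrosomal protein, and FGFR1OP2 on the high list and IGFN1, a muscle protein, on the low list. BMP2K overlaps PAQR3, which was high as well.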
